A study of Homo sapiens with 6 samples.

Results

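The genes described here give lung fibroblasts their identity or encode growth factors that these cells secrete. They are the transcription factor genes TCF21, FOXF1, TBX4, TBX5, MEOX1 and MEOX2, the nuclear receptor gene PPARG, and the ligand genes FGF7, FGF10 and HGF. They were chosen by gene symbol, and all 10 were found among the 60623 gene IDs of the mRNA table. MRC5 cells, an established line of human fetal lung fibroblasts labelled as wild type, were profiled at 48 h in 3 groups: luteolin + TGF-β1, TGF-β1 alone, and a control that received DMSO, the solvent. TGF-β1, a cytokine of wound repair, drives cultured fibroblasts towards myofibroblasts, and luteolin is a flavonoid found in plants. Every group was represented by 1 library of mRNA and 1 of small RNA, which makes 6 in total. There is therefore no replicate check: every ratio compares 2 libraries of 1 cell line, no test was possible, and every interval covers counting error only. The labels state neither the doses nor the order in which luteolin and TGF-β1 were added, and luteolin without TGF-β1 was not analysed here.

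In the developing lung, FOXF1, TBX4 and TBX5 act in the mesenchyme, where FOXF1 lies downstream of Hedgehog signals from the epithelium and the T-box factors support budding through FGF10. TCF21, a basic helix-loop-helix factor, and PPARG, a fatty acid sensing nuclear receptor, are known for the lipid-storing fibroblast of the alveolar wall, a state that is lost when fibroblasts become myofibroblasts. FGF7, FGF10 and HGF are paracrine ligands made by fibroblasts, with receptors mainly on epithelial cells: FGFR2 for both FGF ligands and MET for HGF. MEOX1 and MEOX2 are homeobox factors of the embryonic mesoderm, and MEOX1 has been linked to the activation of cardiac fibroblasts in mice.

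Total counts in the mRNA libraries were 15563805 for luteolin + TGF-β1, 14609132 for TGF-β1 and 17876657 for control. Levels are given as CPM, the library's counts per fixed total, scaled by the trimmed mean of M values (TMM), and a gene was called when it differed at least 2-fold, with a 95% interval that excluded equality, among genes with at least 1 CPM in 1 of the 2 libraries compared. ACTA2, which encodes smooth muscle actin, was higher in TGF-β1 than in control (log2 ratio 1.71, 95% interval 1.65 to 1.77). All 10 fibroblast markers passed the filter on low counts. In TGF-β1 over control, 1 was called higher (COL1A1) and 2 lower, DCN (-2.80) and LUM (-2.82). Of the 10, 4 were called higher in luteolin + TGF-β1 than in TGF-β1: DCN (2.18), LUM (1.91), COL1A2 (1.30) and PDGFRB (1.20). S100A4 (-1.61) was the 1 called lower there, and PDGFRB lost its call when scaled by total counts (0.99). Over control, luteolin + TGF-β1 had 3 higher and 1 lower. The shares over all genes are given below. The leukocyte markers PTPRC and CD3E, the endothelial marker PECAM1 and the lung epithelial markers SFTPC and SCGB1A1 had 0 counts in all 3 libraries. Of 7 epithelial markers 3 passed the filter, all keratins, and the 7 summed to 61.9 CPM in luteolin + TGF-β1, 141 CPM in TGF-β1 and 109 CPM in control. Of 5 leukocyte markers 0 passed. Of 5 endothelial markers 1 passed, TEK, with 2.92 CPM in luteolin + TGF-β1, 33.6 CPM in TGF-β1 and 35.9 CPM in control, called lower in luteolin + TGF-β1 than in TGF-β1 (-3.52) and than in control (-3.62). The 6 pericyte and smooth muscle markers summed to 199 CPM in luteolin + TGF-β1, 240 CPM in TGF-β1 and 269 CPM in control. In luteolin + TGF-β1 over TGF-β1, 1 of these 6 was called higher, MYH11 at 4.39, and 3 lower, ABCC9 (-3.18), DES (-2.20) and KCNJ8 (-2.17). MYH11 passed the filter there only through the luteolin + TGF-β1 library, and ABCC9 and DES only through the TGF-β1 library. For MYH11, ABCC9 and DES the filter thus fixed the direction of the difference, though not its size. The part of these marker differences in the results was not tested. The luteolin + TGF-β1 library differed from the others in growth genes: all 12 proliferation genes were called lower in it than in TGF-β1 and than in control, with a summed level of 206 CPM in luteolin + TGF-β1, 2340 CPM in TGF-β1 and 1990 CPM in control. The proliferation marker MKI67 was lower in luteolin + TGF-β1 than in TGF-β1 by a log2 ratio of -4.99 (-5.20 to -4.79). Whether this difference has a part in any ratio of the luteolin + TGF-β1 library below was not tested.

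Of the 10 genes, 8 had counts, and 6 reached 1 CPM in all 3 libraries: TCF21, PPARG, FGF7, HGF, TBX5 and FOXF1. MEOX1 passed the filter only through the TGF-β1 library, so that any comparison in which it entered had to show a difference. TBX4 stayed under 1 CPM everywhere, and FGF10 and MEOX2 had 0 counts in every library, which allows up to 0.219 CPM in luteolin + TGF-β1, 0.201 CPM in TGF-β1 and 0.151 CPM in control. In TGF-β1 over control, 7 genes of the set could be compared: 4 were called lower (TCF21, PPARG, FGF7 and HGF) and 1 higher (MEOX1), where 10.4% of all 13416 genes compared were called, 6.67% lower and 3.70% higher. In luteolin + TGF-β1 over TGF-β1, 3 of 7 were called lower (PPARG, HGF and MEOX1) and 1 higher (FGF7), where 27.3% of 13703 genes were called, 14.8% lower and 12.5% higher. With control in place of TGF-β1 as the comparator of luteolin + TGF-β1, 4 of 6 were called lower (TCF21, PPARG, HGF and FOXF1) and 0 higher, where 29.5% of 13859 genes were called, 17.1% lower and 12.4% higher. The first and second comparisons share the TGF-β1 library and the other pairs share a library too, so the comparisons are not independent of each other.

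The median log2 ratio of the genes compared was -2.21 in TGF-β1 over control, where the median of all genes was -0.01. It was -0.36 in luteolin + TGF-β1 over TGF-β1, against -0.04 for all genes, and -1.69 in luteolin + TGF-β1 over control, against -0.08. Of all calls in luteolin + TGF-β1 over TGF-β1, 45.7% were in the higher direction, and this share was 30.8% when the libraries were scaled by total counts and 58.1% when scaled by their upper quartile. For luteolin + TGF-β1 over control it was 42.1%, with 23.4% by total counts and 52.8% by upper quartile. Scaling by total counts shifted the median of all genes by -0.12 in TGF-β1 over control, -0.22 in luteolin + TGF-β1 over TGF-β1 and -0.34 in luteolin + TGF-β1 over control, on the log2 scale, and upper-quartile scaling shifted it by 0.17 in both comparisons of luteolin + TGF-β1.

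Levels of different genes were compared per length, in the authors' TPM, which corrects for transcript length and library size. FOXF1 had the highest level of the set in each library, with 83.8 TPM in luteolin + TGF-β1, 124 TPM in TGF-β1 and 201 TPM in control. In the luteolin + TGF-β1 library it was followed by FGF7, TBX5 and TCF21, at 41.8, 16.0 and 9.65 TPM, and then by HGF and PPARG, whose counting intervals overlapped. In TGF-β1 the order was FOXF1, TBX5, then FGF7 and TCF21 at 10.1 and 9.88 TPM, which did not differ beyond counting error. In control the order was FOXF1, HGF, TCF21 and FGF7, at 201, 89.5, 59.6 and 48.2 TPM, each apart from the next, followed by TBX5 and PPARG at 24.7 and 23.5 TPM with overlapping intervals. The order of the ligands differed between libraries: the TPM ratio of HGF to FGF7 was 0.0431 in luteolin + TGF-β1, 0.520 in TGF-β1 and 1.86 in control.

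**Figure D1:**
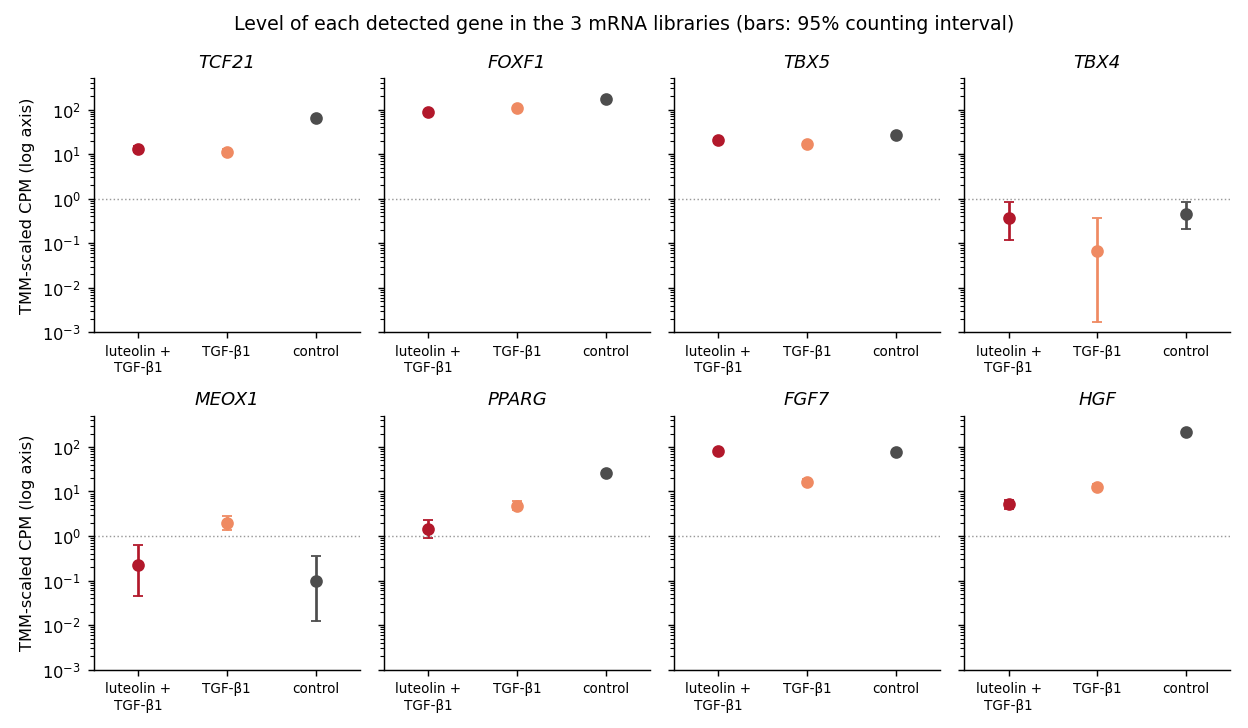
TMM-scaled CPM (log axis) of the 8 members with counts in the luteolin + TGF-β1, TGF-β1 and control libraries, 1 point per library, with bars for the exact 95% counting interval and a dotted line at 1 CPM. FGF7 was low only in TGF-β1, with 80.1 CPM in luteolin + TGF-β1, 16.7 CPM in TGF-β1 and 77.3 CPM in control, whereas PPARG and HGF were lowest in luteolin + TGF-β1.

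TCF21 (ENSG00000118526, chr6:133889113-133895537, GRCh38) had 12.8 CPM in luteolin + TGF-β1, 11.3 CPM in TGF-β1 and 66.2 CPM in control. Both treated libraries were low and the control library stood apart. The TGF-β1 library was 5.85-fold lower than control (log2 ratio -2.55, 95% interval -2.79 to -2.32), and the luteolin + TGF-β1 library was at 19.3% of control (-2.37, -2.61 to -2.14). Between luteolin + TGF-β1 and TGF-β1 the log2 ratio was 0.18 with an interval of -0.14 to 0.49, so no difference was detectable at this depth. In these bulk libraries, fewer cells that express a gene and less RNA per cell cannot be told apart, for TCF21 and for every gene that follows.

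FOXF1 (ENSG00000103241, chr16:86510527-86515422) had 86.0 CPM in luteolin + TGF-β1, 110 CPM in TGF-β1 and 172 CPM in control, a graded pattern with small steps. It was lower in TGF-β1 than in control by less than the 2-fold threshold (-0.65, -0.73 to -0.56), and lower again in luteolin + TGF-β1 than in TGF-β1 (-0.36, -0.47 to -0.25). In luteolin + TGF-β1 it was at 49.9% of control (95% interval of the log2 ratio -1.10 to -0.91), right at the threshold, and its log2 ratio was -0.83 with upper-quartile scaling and -0.96 with median-of-ratios size factors, where it was not called. Its paralog FOXF2 was not called in any comparison, with log2 ratios of -0.39 in TGF-β1 over control, -0.22 in luteolin + TGF-β1 over TGF-β1 and -0.61 in luteolin + TGF-β1 over control.

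TBX5 (ENSG00000089225, chr12:114353911-114408442) had 20.4 CPM in luteolin + TGF-β1, 16.9 CPM in TGF-β1 and 26.3 CPM in control. It was the member with at least 1 CPM in all libraries that was called in none of the comparisons: its log2 ratio was -0.64 in TGF-β1 over control (-0.86 to -0.42), 0.27 in luteolin + TGF-β1 over TGF-β1 (0.02 to 0.52) and -0.37 in luteolin + TGF-β1 over control (-0.58 to -0.15). TBX4 (ENSG00000121075, chr17:61452422-61485110), the paralog most used as a mark of lung mesenchyme, had 5 counts in luteolin + TGF-β1, 1 count in TGF-β1 and 9 counts in control. Such counts do not allow a direction, and the interval in luteolin + TGF-β1 over TGF-β1 ran from -0.71 to 8.01. TBX2, the neighbour of TBX4 and a T-box repressor, was at 84.4 TPM in luteolin + TGF-β1, 48.0 TPM in TGF-β1 and 85.6 TPM in control, which is 5.26 times the level of TBX5 in luteolin + TGF-β1, 3.12 times in TGF-β1 and 3.46 times in control.

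MEOX1 (ENSG00000005102, chr17:43640389-43661922) had 3 counts in luteolin + TGF-β1, 30 counts in TGF-β1 and 2 counts in control. It was high only in the TGF-β1 library, at 2.01 CPM against 0.219 CPM in luteolin + TGF-β1 and 0.100 CPM in control. Its log2 ratio was 4.32 in TGF-β1 over control (2.34 to 7.43) and -3.20 in luteolin + TGF-β1 over TGF-β1 (-5.55 to -1.51), intervals whose width reflects the few counts. MEOX1 was the 1 gene of the set called higher in TGF-β1 than in control. The paralog MEOX2 (ENSG00000106511, chr7:15611212-15686683) had 0 counts throughout.

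PPARG (ENSG00000132170, chr3:12287368-12434344) had 1.46 CPM in luteolin + TGF-β1, 4.82 CPM in TGF-β1 and 26.1 CPM in control. The counts behind these levels were 20 in luteolin + TGF-β1, 72 in TGF-β1 and 519 in control. Each step of this order was called: TGF-β1 was 5.41-fold lower than control (-2.43, -2.81 to -2.08), and luteolin + TGF-β1 was 3.30-fold lower than TGF-β1 (-1.72, -2.51 to -0.99). In luteolin + TGF-β1 it was at 5.61% of control (-4.16, -4.88 to -3.51). The related receptor PPARD was far less uneven: per length, its level was 57.2 times that of PPARG in luteolin + TGF-β1, 19.9 times in TGF-β1 and 3.56 times in control, and its own log2 ratio in TGF-β1 over control was 0.04.

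HGF (ENSG00000019991, chr7:81699010-81770047), the ligand of MET, had 5.12 CPM in luteolin + TGF-β1, 12.9 CPM in TGF-β1 and 213 CPM in control. The libraries had the same order as for PPARG, with control far above both others. TGF-β1 was 16.6-fold lower than control (-4.05, -4.27 to -3.84), luteolin + TGF-β1 was 2.51-fold lower than TGF-β1 (-1.33, -1.75 to -0.93), and luteolin + TGF-β1 was 41.6-fold lower than control (-5.38, -5.74 to -5.04), at 2.40% of its level. Among genes with counts, HGF ranked 12860 of 20659 by TPM in luteolin + TGF-β1, 10309 of 20258 in TGF-β1 and 1722 of 21549 in control.

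FGF7 (ENSG00000140285, chr15:49423242-49488775), also called keratinocyte growth factor, had 80.1 CPM in luteolin + TGF-β1, 16.7 CPM in TGF-β1 and 77.3 CPM in control. Only the TGF-β1 library was low. TGF-β1 was 4.63-fold lower than control (-2.21, -2.41 to -2.02), and luteolin + TGF-β1 was 4.80-fold higher than TGF-β1 (2.26, 2.06 to 2.47). Between luteolin + TGF-β1 and control the log2 ratio was 0.05 (-0.06 to 0.17), and its sign depended on the scaling, at -0.29 by total counts and 0.23 by upper quartile. Of the genes in the set that were called lower in TGF-β1 than in control, FGF7 alone was called higher in luteolin + TGF-β1 than in TGF-β1. FGF10 (ENSG00000070193, chr5:44300247-44389420), the other ligand of FGFR2, had 0 counts in all 3 libraries.

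**Figure D2:**
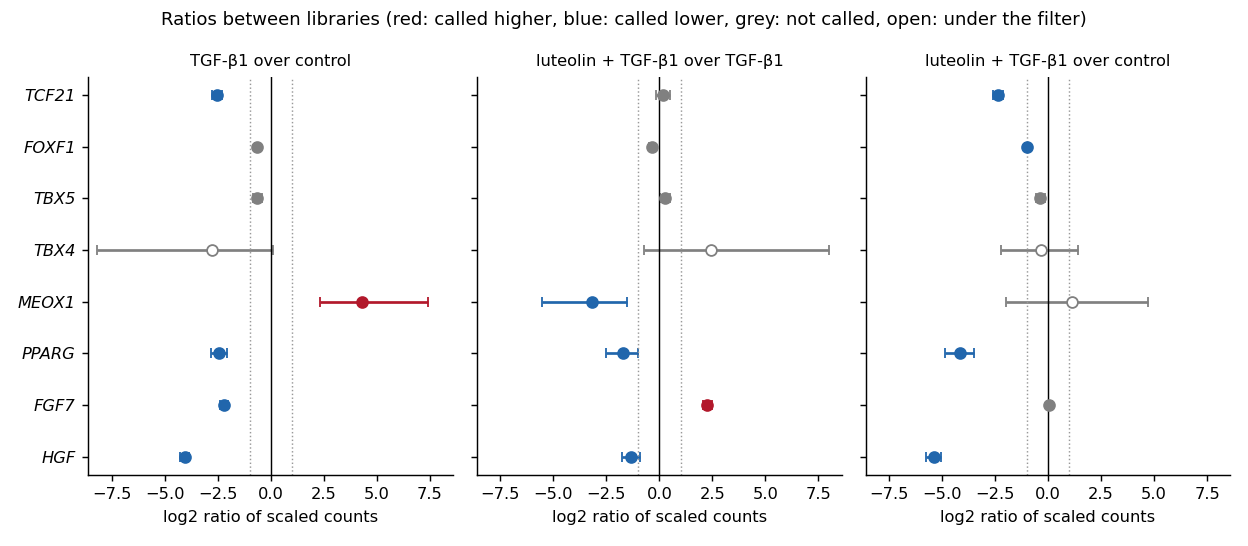
Log2 ratio of TMM-scaled counts for each member with counts in the 3 comparisons, with the exact 95% counting interval as bars and dotted lines at 2-fold. FGF7 lies at 2.26 in luteolin + TGF-β1 over TGF-β1, while PPARG and HGF lie below the lower line in every comparison.

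The authors' deposited table gives log2 fold changes of TGF-β1 over control of -2.53 for TCF21, -2.42 for PPARG, -2.20 for FGF7, -4.03 for HGF and 4.24 for MEOX1. For luteolin + TGF-β1 over TGF-β1 the authors' deposited table gives 0.21 for TCF21, -1.68 for PPARG, 2.30 for FGF7, -1.29 for HGF and -3.11 for MEOX1, in the same directions as above.

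The sequences upstream of HGF, FGF7 and TCF21 are shown because the 3 genes were lower in TGF-β1 than in control but differed in luteolin + TGF-β1 over TGF-β1. Each is the 250 bases before the RefSeq start site on the gene's own strand (GRCh38.p14), and 8 of the 10 genes had such a window. Capitals mark matches on either strand to CAGAC, a SMAD-binding motif, or to CANNTG, the E-box bound by basic helix-loop-helix factors.
HGF, chr7:81770048-81770297, minus strand: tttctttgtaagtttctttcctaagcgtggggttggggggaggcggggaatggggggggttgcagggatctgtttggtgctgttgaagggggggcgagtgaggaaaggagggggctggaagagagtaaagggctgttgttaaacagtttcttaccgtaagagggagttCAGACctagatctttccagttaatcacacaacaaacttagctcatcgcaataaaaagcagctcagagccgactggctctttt
FGF7, chr15:49422992-49423241, plus strand: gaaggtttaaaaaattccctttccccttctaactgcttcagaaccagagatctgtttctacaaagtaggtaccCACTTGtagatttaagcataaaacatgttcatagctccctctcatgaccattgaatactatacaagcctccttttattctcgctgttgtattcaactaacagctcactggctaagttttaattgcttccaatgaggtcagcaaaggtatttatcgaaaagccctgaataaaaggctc
TCF21, chr6:133888863-133889112, plus strand: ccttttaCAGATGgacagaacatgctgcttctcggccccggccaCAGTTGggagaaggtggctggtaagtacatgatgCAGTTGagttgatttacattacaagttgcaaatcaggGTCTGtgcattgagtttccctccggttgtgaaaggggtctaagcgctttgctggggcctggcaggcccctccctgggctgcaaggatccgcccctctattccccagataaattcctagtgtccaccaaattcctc
HGF holds 1 CAGAC match that begins at base -82 from the start site, and no E-box. FGF7 holds no CAGAC match and 1 E-box at -177. TCF21 holds 1 CAGAC match, read on the other strand, at -135, and E-boxes at -243, -206 and -172. None of the 3 windows holds TGANTCA, an AP-1 motif. Among 35116 promoter windows of the same length, 38.0% hold CAGAC, 61.8% CANNTG and 6.57% TGANTCA, so these matches are common letters and not evidence of binding.

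Several of the genes share their locus with another transcript, and the labels do not state whether the counting used strand. FGF7 lies wholly inside the span of FAM227B, which runs on the opposite strand. Where exons of such a pair overlap, reads cannot be told apart without strand, and overlap of exons was not examined. FAM227B had 31 counts in luteolin + TGF-β1, 8 in TGF-β1 and 17 in control, which is 2.83% of the FGF7 counts in luteolin + TGF-β1, 3.21% in TGF-β1 and 1.11% in control. The 8 pseudogene copies of FGF7 summed to 0 counts in luteolin + TGF-β1, 2 in TGF-β1 and 1 in control. TBX5 and its antisense gene TBX5-AS1 overlap by 248 bases, and TBX5-AS1 had 377 counts in luteolin + TGF-β1, 512 in TGF-β1 and 769 in control, more than TBX5 in each.

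FENDRR, a long noncoding RNA that starts 1666 bases from FOXF1 and is transcribed away from it, had 898 counts in luteolin + TGF-β1, 889 in TGF-β1 and 4292 in control. It was called lower in TGF-β1 than in control (-1.86, -1.96 to -1.75), where FOXF1 was not, and the log2 ratio of luteolin + TGF-β1 over TGF-β1 was 0.14 (0.01 to 0.28). Per length, FOXF1 was 2.56 times FENDRR in luteolin + TGF-β1, 3.61 times in TGF-β1 and 1.56 times in control. The forkhead genes FOXC2 and FOXL1, which lie 51406 and 63126 bases from FOXF1, had log2 ratios of 0.84 and -0.20 in TGF-β1 over control, and neither was called in any comparison. TBX3, 261812 bases from TBX5, had 0.89 in TGF-β1 over control and was not called, and TBX2, 42955 bases from TBX4, was called higher in luteolin + TGF-β1 than in TGF-β1, just past the threshold (1.03, 0.92 to 1.13), a call that was lost when scaled by total counts (0.81). The antisense neighbour of TCF21, TARID, had 8 counts in luteolin + TGF-β1, 7 in TGF-β1 and 9 in control.

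**Figure D3:**
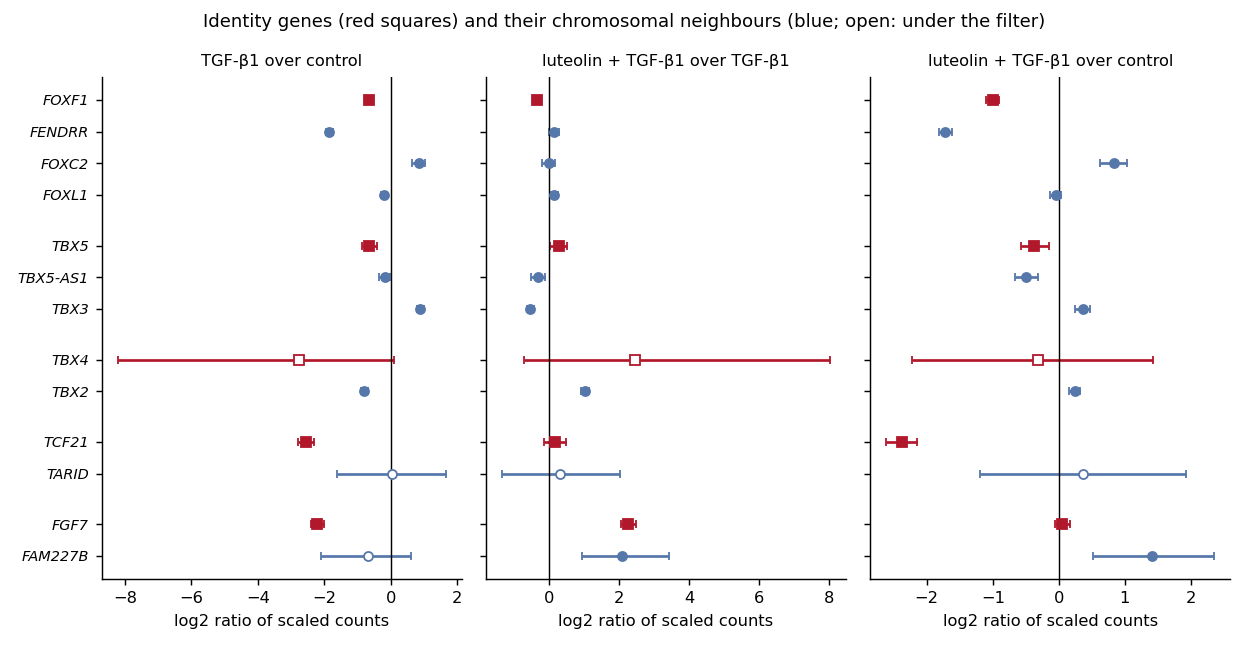
Log2 ratios of FOXF1, TBX5, TBX4, TCF21 and FGF7 and of transcripts that overlap them or lie next to them, in the 3 comparisons, with exact 95% counting intervals. FENDRR lies at -1.86 in TGF-β1 over control, below its neighbour FOXF1 at -0.65.

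The receptors of these ligands were present unequally. MET, the HGF receptor, had 50 CPM in luteolin + TGF-β1, 70.1 CPM in TGF-β1 and 45.6 CPM in control and was not called in any comparison. FGFR1 had 251 CPM in luteolin + TGF-β1, 204 CPM in TGF-β1 and 269 CPM in control and was not called either. FGFR2, which binds FGF7 and FGF10, had 0 counts in luteolin + TGF-β1, 0 in TGF-β1 and 1 in control. Of 23 receptors, activators and inhibitors of FGF and HGF, 1 was called higher and 3 lower of 17 compared in TGF-β1 over control, with a median log2 ratio of -0.40, and 6 were called lower when scaled by total counts. The called genes were ETV4, an FGF-responsive ETS factor, at 1.54, SPRY1, a feedback inhibitor, at -2.68, and FGFR4 and PLAU, each at -2.08. A gene under 1 CPM in the lower library, here SPRY1, entered only through the library where it was high. The filter thus fixed the direction of its difference, though not the size. PLAU encodes urokinase, a protease that can activate HGF, and it was lower again in luteolin + TGF-β1 than in TGF-β1 (-2.04, -2.17 to -1.92).

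When luteolin + TGF-β1 was set against TGF-β1, 7 of 16 genes of this list were called lower and 1 higher, with a median of -0.83, and in luteolin + TGF-β1 over control 9 of 17 were lower and 1 higher, with a median of -1.21. ETV4 (-2.75) and FGFR3 (-2.07) were among the lower genes in luteolin + TGF-β1 over TGF-β1, of which FGFR3 and FGFR4 entered only through the TGF-β1 library, and FGFBP3, which binds FGF ligands, was the higher one at 1.5. PLAU had 44.5 CPM in luteolin + TGF-β1, 183 CPM in TGF-β1 and 777 CPM in control, the same order as HGF and PPARG.

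Of 23 partners and targets of PPARG and lipid genes, 2 were called higher and 1 lower of 12 compared in TGF-β1 over control (median 0.16), 2 higher and 2 lower of 12 in luteolin + TGF-β1 over TGF-β1 (median 0.09), and 1 higher and 3 lower of 11 in luteolin + TGF-β1 over control (median -0.06). The 1 gene called lower in TGF-β1 over control became 3 when scaled by total counts. Beside this list and the other related lists, 3.70% of all genes were called higher and 6.67% lower in TGF-β1 over control. The shares were 12.5% and 14.8% in luteolin + TGF-β1 over TGF-β1, and 12.4% and 17.1% in luteolin + TGF-β1 over control. RXRA, the partner with which PPARG binds DNA, had 48.8 CPM in luteolin + TGF-β1, 46.6 CPM in TGF-β1 and 49.3 CPM in control, and was not called. ANGPTL4, a PPAR target that inhibits lipoprotein lipase, went against PPARG: it had 58.3 CPM in luteolin + TGF-β1, 13.4 CPM in TGF-β1 and 4.67 CPM in control, and was called higher in luteolin + TGF-β1 than in TGF-β1 (2.12, 1.90 to 2.35) and in TGF-β1 than in control (1.52, 1.16 to 1.89). CEBPD, an early adipogenic factor, had 13.1 CPM in luteolin + TGF-β1, 6.43 CPM in TGF-β1 and 30.7 CPM in control, lowest in TGF-β1, and its call in luteolin + TGF-β1 over TGF-β1 (1.03) was lost when scaled by total counts (0.81). FABP4 and FABP5, fatty acid binding proteins, were called lower in luteolin + TGF-β1 than in TGF-β1, at -2.99 and -3.57. FABP4 had 3 counts in luteolin + TGF-β1 and 26 in TGF-β1. It entered only through the TGF-β1 library, which fixed the direction of its difference in both comparisons, though not the size. FABP5 is uncertain because it has pseudogene copies that can share its reads. The fat cell genes ADIPOQ and LPL had 0 counts in all libraries.

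Of 22 markers of alveolar and adventitial fibroblasts, 5 of 10 compared were called lower and 0 higher in TGF-β1 over control, with a median of -1.02. Between luteolin + TGF-β1 and TGF-β1, 4 of 10 were called higher and 1 lower, with a median of 0.64. The lower genes in TGF-β1 included ITGA8, an integrin subunit of alveolar fibroblasts, at -3.62 (-4.65 to -2.74), RGCC at -2.92 and INMT at -2.89. Of the called genes, ITGA8 and ROBO2 in TGF-β1 over control, and ITGA8, LIMCH1 and SCN7A in luteolin + TGF-β1 over TGF-β1, entered only through the library where they were high. ITGA8 had 2.56 CPM in luteolin + TGF-β1, 0.737 CPM in TGF-β1 and 9.04 CPM in control, lowest in TGF-β1. INMT had 13 counts in luteolin + TGF-β1, 28 in TGF-β1 and 277 in control, and was not called in luteolin + TGF-β1 over TGF-β1 (-0.98, -2.05 to 0.02). Against control, in luteolin + TGF-β1, 2 were called higher and 5 lower of 11, with a median of -0.91. Of these, LIMCH1 (higher) and INMT, ROBO2 and SCN7A (lower) entered only through the library where they were high. MACF1, the other gene called higher (1.04), lost its call when scaled by total counts (0.70).

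Among 25 genes of lung mesenchyme development, 5 were called higher and 3 lower of 22 compared in TGF-β1 over control, with a median of 0.14. HHIP, a Hedgehog antagonist that Hedgehog signals induce, had 8.70 CPM in luteolin + TGF-β1, 34.0 CPM in TGF-β1 and 2.56 CPM in control, and its log2 ratio was 3.73 in TGF-β1 over control (3.31 to 4.18). Of the other Hedgehog pathway genes in the list, the effectors GLI1 (1.95) and GLI2 (1.34) were called higher there, and the receptor and target PTCH1 (0.17), GLI3 (0.12) and the transducer SMO (0.02) were not called. BMP4 (-2.82) and WNT2 (-2.17), signals of the distal lung mesenchyme, were called lower, and TCF4, an E protein of the kind with which TCF21 pairs to bind DNA, was called higher at 2.04. The other E proteins of the list, TCF3 (0.54) and TCF12 (0.05), were not called there. Luteolin + TGF-β1 over TGF-β1 had 1 gene called higher, WNT2B at 2.20, and 5 lower of 22, among them HHIP (-1.97) and WNT2 (-2.29), the second through a filter passed by the TGF-β1 library alone, and the median was -0.22. Over control, luteolin + TGF-β1 had 6 higher and 5 lower of 22, with a median of 0.12.

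Among 24 near paralogs of the set, 1 was called higher and 2 lower of 15 compared in TGF-β1 over control (median -0.20), 2 higher and 1 lower of 13 in luteolin + TGF-β1 over TGF-β1 (median 0.15), and 3 higher and 2 lower of 15 in luteolin + TGF-β1 over control (median 0.17). MSC, the paralog of TCF21, ran opposite to it, with 45.5 CPM in luteolin + TGF-β1, 61.3 CPM in TGF-β1 and 8.49 CPM in control (2.85 in TGF-β1 over control, 2.61 to 3.10). Per length, MSC was 7.67 times TCF21 in luteolin + TGF-β1, 11.7 times in TGF-β1 and 0.276 times in control. FGF9 (-3.09) and TBX18 (-2.70) were the genes called lower in TGF-β1, but both entered only through the control library, where they were high, and 0 paralogs were called lower with a filter of 5 CPM. FGF5 was called lower in luteolin + TGF-β1 than in TGF-β1 (-1.28, -1.37 to -1.18).

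**Figure D4:**
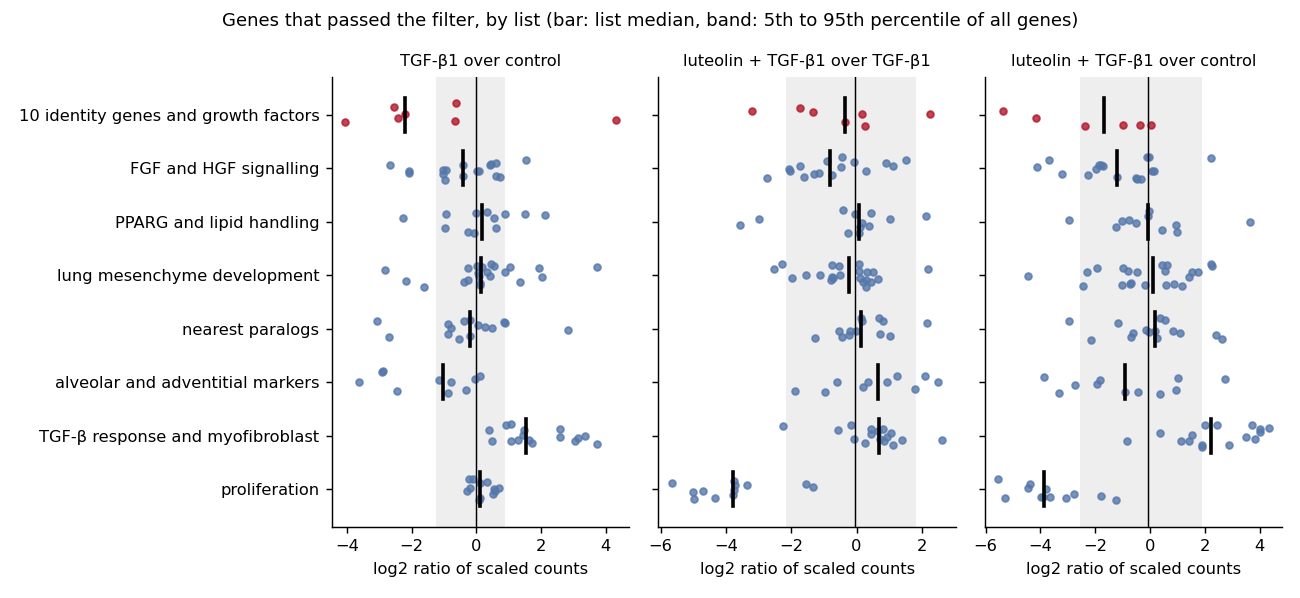
Log2 ratios of the genes of each list that passed the filter on low counts, 1 point per gene, with a bar at the list's median, in the 3 comparisons. The 12 proliferation genes have a median of -3.77 in luteolin + TGF-β1 over TGF-β1, and the 16 TGF-β response genes one of 1.55 in TGF-β1 over control.

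Of 16 TGF-β response and myofibroblast genes, 13 were called higher and 0 lower in TGF-β1 over control (median 1.55), 4 higher and 1 lower in luteolin + TGF-β1 over TGF-β1 (median 0.68), and 14 higher and 0 lower in luteolin + TGF-β1 over control (median 2.23). The gene called lower was LRRC15, a myofibroblast surface protein, with 27.9 CPM in luteolin + TGF-β1, 133 CPM in TGF-β1 and 49.4 CPM in control (-2.25 in luteolin + TGF-β1 over TGF-β1, -2.42 to -2.09). POSTN, a matrix protein, was called in none of the comparisons. COMP, called higher in both comparisons with control, entered them only through the library where it was high. When scaled by total counts, TGFBI (0.90) and CCN2 (0.83) lost their higher calls in luteolin + TGF-β1 over TGF-β1. COL1A1 (0.95) and TAGLN (0.93) lost theirs in TGF-β1 over control, and CTHRC1 (0.79) in luteolin + TGF-β1 over control, where LRRC15 (-1.17) was then called lower. ACTA2 had 3300 CPM in luteolin + TGF-β1, 533 CPM in TGF-β1 and 164 CPM in control, highest in luteolin + TGF-β1.

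The genes nearest to each called member were taken in the plane whose axes are the log2 ratios of luteolin + TGF-β1 over TGF-β1 and of TGF-β1 over control, among 11743 genes with at least 100 summed counts. Both axes share the TGF-β1 library, and likeness over 3 libraries is a description only. Nearest to TCF21 was IGFBP5, an IGF binding protein, at a distance of 0.085, with 1130 CPM in luteolin + TGF-β1, 965 CPM in TGF-β1 and 5920 CPM in control, followed by RASL11A and MTSS1. Nearest to FGF7 were RDH10, a retinol dehydrogenase, at 0.241, LAMA4, a laminin chain, at 0.281, and CYRIA. LAMA4 had 74.4 CPM in luteolin + TGF-β1, 18.8 CPM in TGF-β1 and 86.3 CPM in control. PPARG lay near TMCO4, COLEC12 and IFIT1, within 0.181, and FOXF1 near LPCAT3, RIDA and ALG6, within 0.053. The nearest distances were largest for HGF and MEOX1. MBP lay nearest to HGF at 0.400, followed by KCNQ3 and GDF5, and ESM1 nearest to MEOX1 at 0.859, followed by HHIP and TNFAIP6. MEOX1, with 3, 30 and 2 counts, was itself under the 100 summed counts asked of other genes. The intervals of its ratios were wider than 0.859, so its distances do not show whether it has a close neighbour.

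The small RNA libraries give another readout of the same treatments. The miR-27 and miR-130 families have reported target sites in PPARG mRNA, and members with the same seed (bases 2 to 8, in capitals) are shown to group them, with sequences from RefSeq (GRCh38.p14).
hsa-miR-27a-3p: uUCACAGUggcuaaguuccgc
hsa-miR-27b-3p: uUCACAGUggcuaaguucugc
hsa-miR-130b-3p: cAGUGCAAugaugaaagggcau
hsa-miR-301a-3p: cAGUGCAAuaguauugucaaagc
The seed UCACAGU is shared by the miR-27 pair and AGUGCAA by miR-130b-3p and miR-301a-3p. miR-27a-3p had 12900 CPM in luteolin + TGF-β1, 5240 CPM in TGF-β1 and 5920 CPM in control, highest in luteolin + TGF-β1 (1.30 over TGF-β1, 1.28 to 1.31), where PPARG was lowest. miR-27b-3p had 8220 CPM in luteolin + TGF-β1, 10500 CPM in TGF-β1 and 4420 CPM in control, and was called higher in TGF-β1 than in control (1.25, 1.24 to 1.26). miR-130b-3p was lowest in TGF-β1, with 595 CPM in luteolin + TGF-β1, 230 CPM in TGF-β1 and 1380 CPM in control. Its log2 ratio was -2.58 in TGF-β1 over control and 1.37 in luteolin + TGF-β1 over TGF-β1. miR-130a-3p and miR-301a-3p were also lowest in TGF-β1, with log2 ratios of -2.60 and -1.55 in TGF-β1 over control. In luteolin + TGF-β1 over TGF-β1 both were called higher, at 1.18 and 1.33, as were miR-130b-3p and miR-27a-3p.

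Of the 10 miRNAs with reported sites in PPARG, MEOX2 or MET mRNA, 8 could be compared in TGF-β1 over control: 5 were called lower and 1 higher, where 37.2% of 358 miRNAs were called lower and 14.5% higher. Relative to TGF-β1, in luteolin + TGF-β1 7 of 9 were called higher and 0 lower, where 33.6% of 342 were called higher and 17.3% lower. Of the 7, miR-1-3p passed the filter of 10 CPM only through the luteolin + TGF-β1 library. It had 14.6 CPM in luteolin + TGF-β1, 2.84 CPM in TGF-β1 and 6.87 CPM in control. The filter thus fixed the direction of its difference there and over control, though not the size. Relative to control, in luteolin + TGF-β1 2 of 9 were called higher and 3 lower, where 12.1% of 354 were called higher and 26.8% lower. The miRNAs reported to act on MET included miR-34a-5p, with 5150 CPM in luteolin + TGF-β1, 869 CPM in TGF-β1 and 4360 CPM in control, lowest where MET was highest, and miR-199a-3p, with 17300 CPM in luteolin + TGF-β1, 34000 CPM in TGF-β1 and 24800 CPM in control, highest where MET was highest. With 3 libraries an order shared by 2 RNAs is a description and no sign that one acts on the other.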

How the data were processed

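Poly(A) mRNA and small RNA libraries of MRC5 cells were made with TruSeq kits (stranded for mRNA), per the labels' protocols. The authors deposited whole-number counts per gene and per miRNA, which were used unchanged. TPM values are the authors', per the file headers, and served to compare genes per length. The authors' deposited table also holds log2 fold changes from pairs of single libraries; its deposited p-values were not used. The miRNA columns headed CPM were treated as a score per the file headers and not used, because they do not sum to 1 total. The submitters' processing notes list build hg38, edgeR 3.36.0, featureCounts 2.0.1, HISAT2 2.1.0 and fastp 0.20.0. The annotation release, the strand setting and the miRNA aligner were not stated in the labels.

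Counts were scaled by TMM (edgeR 4.0.16, R 4.3.3) over the 3 libraries of an assay, with factors of 0.879 for luteolin + TGF-β1, 1.02 for TGF-β1 and 1.11 for control mRNA. Total miRNA counts were 14044332 for luteolin + TGF-β1, 7533041 for TGF-β1 and 22277636 for control. Each ratio has an exact 95% Clopper-Pearson interval conditional on the sum of both counts (SciPy 1.17.1). The filter was 1 CPM for mRNA and 10 CPM for miRNA in at least 1 library compared. The intervals and floors treat reads as independent molecules, which reads lacking molecular identifiers are not. The code for ratios and calls was checked on simulated counts, which do not hold variation between cultures. A count of 0 allows up to 3 counts. Named were all members, the called genes with the most extreme ratios in each list, preset receptors and partners, and the nearest genes. GLI1 and other Hedgehog genes, PPARD, DES, KCNJ8, ABCC9, MYH11, TEK, LRRC15, POSTN, marker and fat cell genes at 0 counts, and genes next to members were named in addition, after their values were seen. So were the called fibroblast markers, TCF3 and TCF12. Genes named because they passed the filter through 1 library only, or because another scaling changed their calls, were also chosen after their values were seen. The members and lists were chosen with earlier results of these data known. Positions and sequences are from RefSeq, GRCh38.p14. Values of 2 listed genes are not reported here.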

Additional observations from a re-analysis of the deposited data

How the results depend on the processing

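For the mRNA libraries, scaling, the filter on low counts, the call rule, the authors' TPM and the authors' deposited table were tried as alternatives. No direction of a called mRNA value changed. The miRNA calls were not tried under any alternative, so how far they depend on scaling or the filter was not tested. Of 110 alternative values of the members' log2 ratios, 94 stayed within the counting interval and 16 moved beyond it. With a filter of 5 CPM, MEOX1 dropped out, which left 0 members called higher in TGF-β1 over control, and 1 called lower in luteolin + TGF-β1 over TGF-β1 (HGF), since PPARG then lost its call. When the whole interval had to lie beyond 2-fold, 1 member was called lower in luteolin + TGF-β1 over TGF-β1 (MEOX1), and PPARG and HGF were not. Counts over all genes moved by over 1.5 times as follows. In TGF-β1 over control, 300, 286 and 1112 genes were called higher, and 506, 436 and 1653 lower, with the 5 CPM filter, the interval wholly beyond 2-fold and a 1.5-fold threshold. In luteolin + TGF-β1 over TGF-β1, 975, 922 and 2914 were higher under those settings, and 1201 and 3332 lower under the last 2. In luteolin + TGF-β1 over control, 1049, 1063 and 2818 were higher, 1077 with scaling by total counts, and 1549 and 3639 lower under the last 2. At 1.5-fold, TBX5 and FOXF1 were also called lower in TGF-β1 over control. Of the counts of called genes in related and marker lists, 472 alternative values stayed within 1.5 times and 74 moved beyond it, so these small counts depend on the setting. FGF10 and MEOX2 at 0 counts, TBX4 at 1 to 9 and MEOX1 at 2 to 30 are limited by depth. No paired analysis was possible because each group had 1 library, and leaving out a replicate was not possible for the same reason.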
